A study of Homo sapiens with 6 samples.

Results

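Solute carriers are the membrane proteins that move sugars, amino acids, nucleosides, lipids, vitamins and metal ions between cells, their surroundings and their organelles. The genes described here are the solute carriers of the plasma membrane and of organelles other than mitochondria. They are the protein-coding genes named SLC, a family number, the letter A and a member number, without the mitochondrial SLC25A family and without SLC2A1, SLC7A11, SLC11A2, SLC39A14 and SLC40A1, which were set aside by name. Of 299 genes with such names, 44 were SLC25A carriers and 5 were the genes set aside. A minimum of 600 reads summed over all 6 libraries then kept 124 of the remaining 250, out of 29845 genes with at least 1 read.

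Both groups were A549 cells, an established human lung epithelial cancer line. The control libraries (n = 3) came from cells transfected with the empty vector pIRES-hrGFP-1a. The libraries labelled TFAM-OE (n = 3) came from cells transfected with the same vector carrying FLAG-tagged TFAM, the mitochondrial DNA-packaging and transcription factor. All cells received Lipofectamine and were harvested 48 h after transfection, and polyadenylated RNA was sequenced with a stranded kit. Transient transfection leaves a mixture of cells that took up the plasmid and cells that did not.

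The 6 libraries held between 26650854 and 37321956 reads. TFAM mRNA itself did not differ by a detectable amount between the groups. It stood at 12.36, 10.99 and 11.20 FPKM (fragments per kilobase of transcript, scaled to library size) in control replicates 1 to 3 and at 10.64, 11.88 and 13.63 FPKM in TFAM-OE replicates 1 to 3. The groups gave a log2 fold change of 0.08 (Benjamini-Hochberg adjusted p 0.623 in edgeR's quasi-likelihood fit). The groups were therefore taken from the labels and not from the TFAM count. The study also assessed the tagged protein by western blot, which was not analysed here. Of 8 lung epithelial markers, KRT7, KRT8, KRT18 and KRT19 exceeded 1 FPKM in every library, whereas EPCAM, CDH1, CLDN4 and MUC1 did not. The summed level of the 8 markers ran from 2599 to 2799 FPKM in control and from 2452 to 2852 FPKM in TFAM-OE. Among alveolar type II markers only ABCA3 exceeded 1 FPKM in every library. LAMP3 stood at 1.83, 1.60 and 1.25 FPKM in control and between 0.16 and 0.23 FPKM in TFAM-OE, a log2 fold change of -2.91 (edgeR adjusted p 6.7e-05), and the summed list ran from 11.87 to 12.25 FPKM in control and from 10 to 11.19 FPKM in TFAM-OE. The endothelial markers together reached at most 0.05 FPKM. Leukocyte markers summed to between 1.45 and 1.73 FPKM in control and between 0.53 and 0.83 FPKM in TFAM-OE, with CD68 lower, and fibroblast markers to between 0.66 and 0.77 and between 0.41 and 0.67 FPKM. The part of these marker shifts in the results below was not tested. TFAM-OE replicate 3 stood apart from TFAM-OE replicate 1 more than any other pair of libraries of one group, and counts that rest on it are given with and without it.

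Solute carriers are grouped into families by sequence, and members of one family often share a substrate. Some work alone, and others, such as the light chain SLC7A5, reach the cell surface only with a partner, here the heavy chain SLC3A2. Direction depends on the carrier type: uniporters follow a gradient, symporters and exchangers couple their substrate to a second one. The 124 genes belonged to 38 families and were sorted into classes by substrate, apart from SLC22A18. Of the classes, amino acids (23 genes), zinc, copper, magnesium and heme (22), and protons, sodium, bicarbonate, chloride, sulfate and calcium (21) held the most.

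As a set, the carriers did not move one way. Of the 124 genes, 8 rose and 4 fell past the threshold of an adjusted p below 0.05, which is 9.68% of them. The background was 8.29% of all 16555 genes tested, with 4.81% lower and 3.48% higher, and 9.11% of the 11159 protein-coding genes with at least 600 reads, with 4.84% lower and 4.27% higher. The share among carriers was near this background and is not a result about carriers as a set. Their median log2 fold change was -0.04, with the middle of the distribution between -0.21 and 0.22, against -0.01 for all genes tested. A log2 fold change within 0.5 of 0 was found for 111 genes, or 89.5%, and the protein-coding genes of the same read minimum gave 89.5% too. In a bulk sample a change in the share of cells that express a gene and a change in RNA per cell cannot be told apart.

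Only SLC37A4, which rose, and SLC16A6, which fell, also passed a 2-fold change. The background for this call was 0.447% of all genes tested in the higher direction and 2.07% in the lower, 2.51% in all. Among protein-coding genes with at least 600 reads it was 0.260% higher and 1.39% lower, 1.65% in all. The 3 control libraries and the 3 TFAM-OE libraries did not overlap in 24 carriers that were higher and in 21 that were lower, which is 36.3% of them. The background was 31.7% of all genes tested, 15.8% in each direction, and 34.0% of protein-coding genes with at least 600 reads, 18.5% higher and 15.5% lower. At an unadjusted p below 0.05 in the same edgeR fit, 24 of the 124 were higher and 16 lower. The background at that p was 2017 higher and 2191 lower of all 16555 genes tested. Among the 11159 protein-coding genes with at least 600 reads it was 1635 higher and 1457 lower. The counts of each class below stand against the same backgrounds, and no class was tested against the others.

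**Figure D1:**
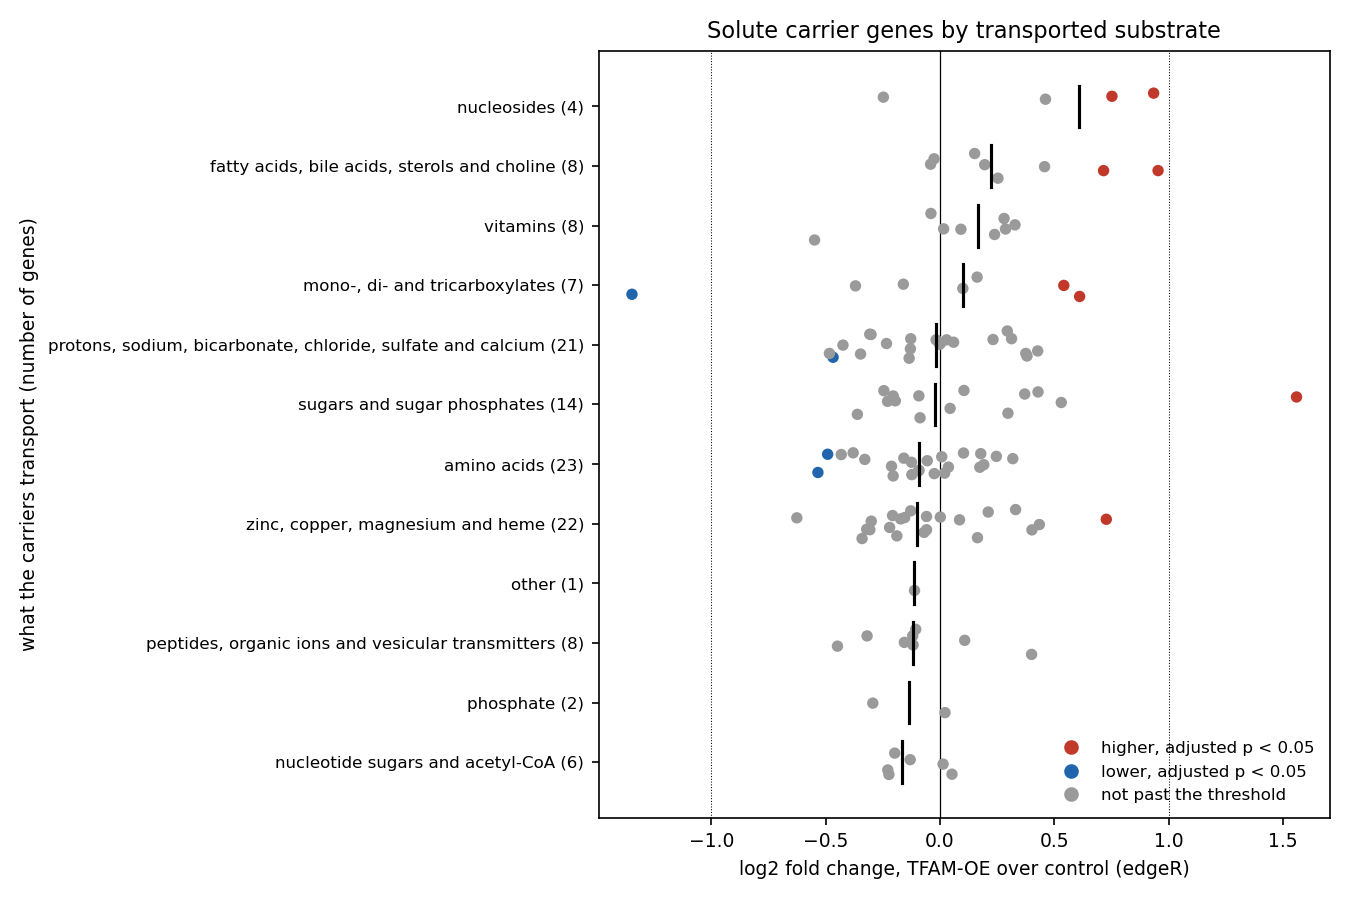
Log2 fold change of TFAM-OE over control for each of 124 solute carrier genes (horizontal axis), in rows by what they transport, with the number of genes in brackets. Each point is a gene, colored where it passed an adjusted p below 0.05, each black bar is the median of a class, and dotted lines mark a 2-fold change. Nucleoside carriers have the highest median, 0.61, and SLC37A4 and SLC16A6 alone lie beyond the dotted lines.

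Levels are compared between genes only as FPKM, which is scaled by length. The mean over 6 libraries ran from 0.357 to 382.6 FPKM with a median of 4.62, and 32 carriers exceeded 10 FPKM while 12 were below 1. SLC7A5 (LAT1), the large neutral amino acid exchanger, was the most abundant. It stood at 374, 395 and 375 FPKM in control and at 387, 394 and 371 FPKM in TFAM-OE, so the groups overlapped. Pseudogene copies of SLC7A5 make its counts less certain. SLC3A2, its heavy chain, stood at 376, 334 and 290 FPKM in control and at 253, 231 and 211 FPKM in TFAM-OE, where every library was below every control library. SLC1A5 (ASCT2), the glutamine and neutral amino acid exchanger, followed at a mean of 113 FPKM.

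The next levels were those of SLC4A2, a chloride and bicarbonate exchanger (74.5 FPKM), SLC39A1, a zinc importer (66.5 FPKM), SLC52A2, a riboflavin carrier (58.4 FPKM), SLC39A7, which releases zinc from the endoplasmic reticulum and Golgi (48.8 FPKM), and SLC20A1, a sodium and phosphate symporter (43.3 FPKM). Neighbors in this order overlapped in places. SLC4A2 ranged from 61.5 to 82.8 FPKM over the 6 libraries and SLC39A1 from 62.1 to 73.6 FPKM. These 8 genes made up between 53.3% and 59.5% of the carriers' summed FPKM in each library, and the 124 carriers together took between 0.830% and 0.919% of all reads. Of the 8, only SLC3A2 passed the adjusted p threshold.

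**Figure D2:**
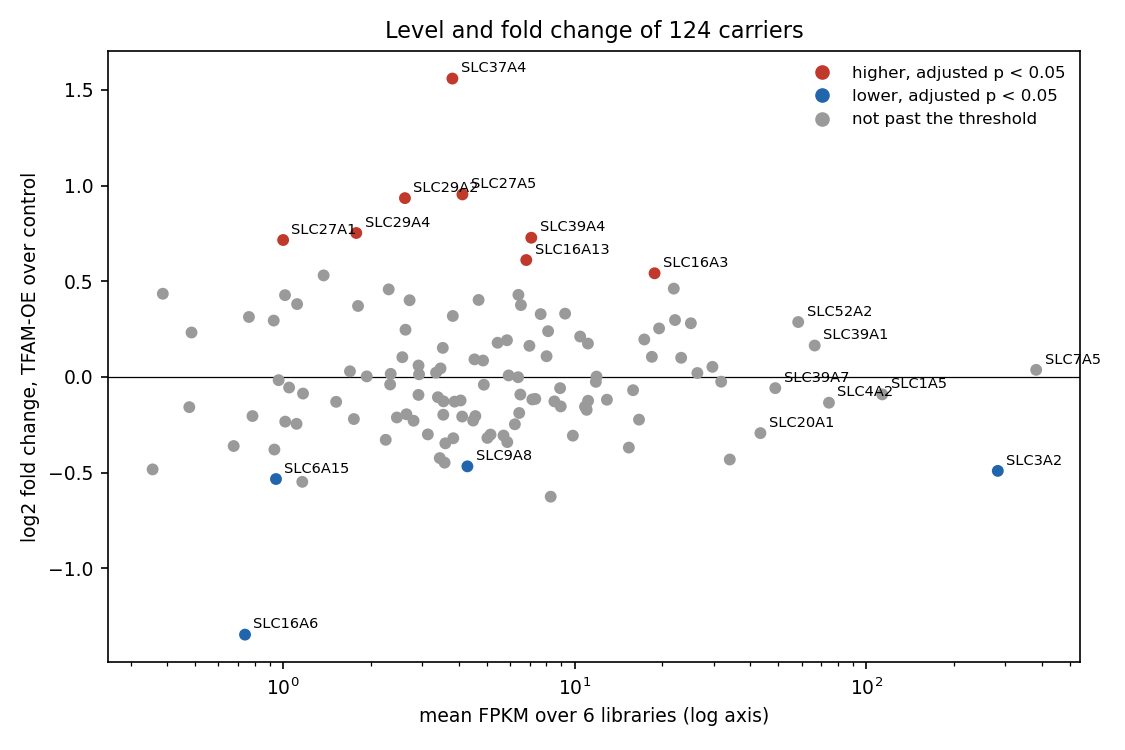
Mean FPKM over the 6 libraries (horizontal log axis) against the log2 fold change of TFAM-OE over control (vertical axis) for 124 carriers, with labels on the 12 genes past the adjusted p threshold and the 8 with the highest FPKM. The carriers that rose lie between 1.00 and 18.8 FPKM, and SLC3A2 is the one abundant carrier that fell.

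Amino acid carriers were the largest class, and 2 of 23 fell while none rose. The 2 were SLC3A2 and SLC6A15, a sodium-coupled carrier of neutral amino acids, and the class median log2 fold change was -0.09. In CPM, counts scaled to library size by TMM (trimmed mean of M values) and used from here on to compare a gene between libraries, SLC3A2 stood at 1135, 1044 and 922 in control and at 839, 736 and 631 in TFAM-OE. The lowest control library was above the highest TFAM-OE library. Its log2 fold change was -0.49 (SE 0.13, Benjamini-Hochberg adjusted p 0.045 in edgeR's quasi-likelihood fit), a fold of 0.712 with a 95% interval from 0.584 to 0.867. SLC7A5, the light chain that SLC3A2 carries to the membrane, differed by 0.04 on the log2 scale, with a 95% interval from -0.19 to 0.27 and an adjusted p of 0.858.

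The ratio of SLC3A2 to SLC7A5 in CPM, which is not scaled by length and is read only between libraries, not as a level of one gene against the other, was 0.583, 0.489 and 0.447 in control and 0.379, 0.339 and 0.329 in TFAM-OE. All control libraries were above all TFAM-OE libraries, and the mean log2 ratio differed by -0.53. The exact two-sided permutation test gave p = 0.1, the smallest value that 3 against 3 libraries allow, and 0.1 after adjustment over the 4 ratios computed after the values were seen. SLC6A15 stood at 10.8, 11.0 and 9.33 CPM in control and at 6.68, 6.91 and 7.86 CPM in TFAM-OE, with no overlap and a log2 fold change of -0.53 (SE 0.14, Benjamini-Hochberg adjusted p 0.044 in edgeR's quasi-likelihood fit).

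Other amino acid carriers did not pass. SLC38A2 (SNAT2), which takes up small neutral amino acids, stood at 269, 226 and 192 CPM in control and at 124, 160 and 226 CPM in TFAM-OE. TFAM-OE replicate 3 fell inside the control range, replicates 1 and 2 below it. The log2 fold change, -0.43, had a 95% interval from -0.88 to 0.01 and an edgeR adjusted p of 0.209. For SLC1A5 it was -0.09 (95% interval from -0.31 to 0.13), and for SLC6A6, the taurine carrier, -0.02 (from -0.35 to 0.30). The highest value of the class was that of SLC6A9, the glycine carrier, at 0.32 with an adjusted p of 0.11.

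Among 14 sugar and sugar phosphate carriers 1 rose, SLC37A4, and none fell. SLC37A4 moves glucose-6-phosphate into the endoplasmic reticulum, where glucose-6-phosphatase releases free glucose. The gene lies at chr11:119023751-119030906 on the minus strand (GRCh38, GENCODE release 44). It stood at 4.94, 5.83 and 8.19 CPM in control and at 18.1, 17.8 and 20.2 CPM in TFAM-OE. Each TFAM-OE library exceeded each control library, and the counts were 622 reads in control and 1829 in TFAM-OE over 3 libraries each. The log2 fold change was 1.56 (SE 0.18, Benjamini-Hochberg adjusted p 0.0013 in edgeR's quasi-likelihood fit), or 2.95-fold with a 95% interval from 2.22 to 3.91. Exons of TRAPPC4 on the opposite strand cover 13.3% of its exon bases, and TRAPPC4 had a log2 fold change of 0.02.

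The remaining sugar carriers had log2 fold changes between -0.36, of the proton and myo-inositol symporter SLC2A13, and 0.53, of SLC45A1, with adjusted p of 0.20 and 0.067 in the edgeR fit. SLC2A8, an intracellular hexose carrier, had 0.43 with an adjusted p of 0.067. SLC37A1 and SLC37A3, the relatives of SLC37A4 that were measured, had -0.20 and -0.09. SLC2A3, a glucose carrier with a near-identical copy in SLC2A14, had -0.23, and reads of the pair may be split between them.

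Of 7 carriers of mono-, di- and tricarboxylates, all from the SLC16 family, 2 rose and 1 fell, and in 5 of the 7 the groups did not overlap, beside 8.29% past the threshold and 31.7% not overlapping among all genes tested. SLC16A3 (MCT4), the lactate exporter of glycolytic cells, stood at 89.2, 102 and 88.9 CPM in control and at 124, 136 and 148 CPM in TFAM-OE. All TFAM-OE libraries were above all control libraries. Its log2 fold change was 0.54 (SE 0.11, Benjamini-Hochberg adjusted p 0.015 in edgeR's quasi-likelihood fit), or 1.46-fold with a 95% interval from 1.24 to 1.71. CSNK1D, which overlaps 5.2% of its exon bases on the opposite strand, changed in the opposite direction, by -0.49 with an adjusted p of 0.013.

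SLC16A13, a member of the same family, stood at 10.8, 11.2 and 11.4 CPM in control and at 15.2, 17.3 and 18.6 CPM in TFAM-OE. The groups were apart, with a log2 fold change of 0.61 (SE 0.12, Benjamini-Hochberg adjusted p 0.018 in edgeR's quasi-likelihood fit). SLC16A6 (MCT7), which has been described as a ketone body carrier, stood at 5.96, 5.04 and 3.79 CPM in control and at 1.63, 2.04 and 2.13 CPM in TFAM-OE. Every TFAM-OE library was below every control library, with 474 reads in control and 190 in TFAM-OE. It fell by 1.35 on the log2 scale (SE 0.21, edgeR adjusted p 0.0056), a fold of 0.393 with a 95% interval from 0.284 to 0.544. SLC16A6 passed the minimum of 600 reads mainly through its control libraries.

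SLC16A1 (MCT1), the lactate and pyruvate carrier found in most cells, was not called. It stood at 70.1, 59.8 and 60.1 CPM in control and at 54.4, 54.0 and 61.7 CPM in TFAM-OE, and TFAM-OE replicate 3 was inside the control range. The log2 fold change, -0.16, had a 95% interval from -0.40 to 0.08. The ratio of SLC16A3 to SLC16A1 in CPM, again read only between libraries, was 1.27, 1.71 and 1.48 in control and 2.27, 2.51 and 2.40 in TFAM-OE, higher in each TFAM-OE library than in each control library. The mean log2 ratio differed by 0.70, with an exact two-sided permutation p of 0.1, the smallest possible. BSG, the chaperone that brings SLC16A1 and SLC16A3 to the membrane, had a log2 fold change of -0.08 (edgeR adjusted p 0.690).

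The coding sequences of these relatives differ in base composition, which bears on a pattern described further on. Each line gives the middle 30 bases of the longest coding exon part of the canonical transcript in the direction of the mRNA, with G and C in capitals (GENCODE release 44, GRCh38), for the SLC16 genes that moved in either direction, for SLC16A1 and for SLC37A4.
SLC16A3: tCCCGCCCGtGttCGtGGtGaGCtaCGCCa
SLC16A13: CCtaCCtCCaCCtGGtGGCCCatCtCCaGG
SLC16A6: ttGGtCtCtttGCaaCaCtGGGattCtttG
SLC16A1: CaGaGGCtttttGCtataCCtCtCtGGaaa
SLC37A4: CtGCtCCtGGttGGCCtGGtCaaCatattC
The first lies at chr17:82237501-82237530 in exon 4 of 5, the second at chr17:7038506-7038535 in exon 3 of 4, both on the plus strand. SLC16A6 was read at chr17:68271232-68271261 in exon 5 of 6, SLC16A1 at chr1:112917597-112917626 in exon 4 of 5 and SLC37A4 at chr11:119028296-119028325 in exon 3 of 10, all on the minus strand. G and C made up 20 of 30 bases in SLC16A3 and SLC16A13, 13 in SLC16A6 and SLC16A1, and 16 in SLC37A4. Over the whole coding sequence the GC content was 64.8%, 61.1%, 47.1%, 46.5% and 57.0% in the order of the lines.

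All 4 nucleoside carriers, the equilibrative transporters of the SLC29 family, had groups that did not overlap, 3 higher and 1 lower, and 2 of them rose past the threshold, where all genes tested gave 31.7% not overlapping and 8.29% past the threshold. A class of 4 genes is too small to set against those shares. SLC29A2 (ENT2), a plasma membrane carrier of nucleosides and nucleobases, stood at 4.50, 6.61 and 6.25 CPM in control and at 11.2, 9.79 and 12.2 CPM in TFAM-OE. SLC29A4 (PMAT), which also carries monoamines, stood at 7.62, 10.4 and 8.81 CPM in control and at 13.6, 16.5 and 15.0 CPM in TFAM-OE. In both genes the lowest TFAM-OE library was above the highest control library. By edgeR's quasi-likelihood test with Benjamini-Hochberg adjustment the log2 fold change of SLC29A2 was 0.93 (SE 0.17, adjusted p 0.012) and that of SLC29A4 was 0.75 (SE 0.15, adjusted p 0.017). SLC29A4 has pseudogene copies, so its counts are less certain, and exons of B4GAT1-DT cover 10.3% of SLC29A2 on the opposite strand.

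SLC29A1 (ENT1), the most abundant of the 4, stood at 54.2, 70.9 and 73.4 CPM in control and at 101, 92.6 and 79.4 CPM in TFAM-OE. The groups were apart, but its log2 fold change of 0.46 (95% interval from 0.15 to 0.77) had an edgeR adjusted p of 0.067. SLC29A1 passed without TFAM-OE replicate 3 and in several other alternative fits, but with no other single library left out. SLC29A3 (ENT3), the lysosomal member, had -0.25 with an adjusted p of 0.22. The class median was 0.61 over 4 genes.

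Among 8 carriers of fatty acids, bile acids, sterols and choline, 2 rose and none fell. SLC27A5, a bile acid and very long chain acyl-CoA synthetase of the fatty acid transport protein family, stood at 6.13, 8.63 and 9.44 CPM in control and at 17.3, 15.7 and 13.9 CPM in TFAM-OE. SLC27A1 (FATP1), which promotes fatty acid uptake, stood at 2.92, 3.77 and 3.79 CPM in control and at 4.93, 6.44 and 5.83 CPM in TFAM-OE. Neither gene had overlapping groups, and SLC27A1 was the weaker of the 2 calls. By edgeR's quasi-likelihood test with Benjamini-Hochberg adjustment, SLC27A5 had a log2 fold change of 0.95 (SE 0.17, adjusted p 0.012) and SLC27A1 one of 0.72 (SE 0.17, adjusted p 0.035). Opposite-strand exons, mainly of ZNF446, cover 16.5% of SLC27A5, and ZNF446 had a log2 fold change of 0.01. SLC27A4 and SLC27A2, relatives of higher abundance, had 0.25 and -0.03, and neither passed. SLC44A2, a choline carrier, had 0.46 with an adjusted p of 0.073.

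**Figure D3:**
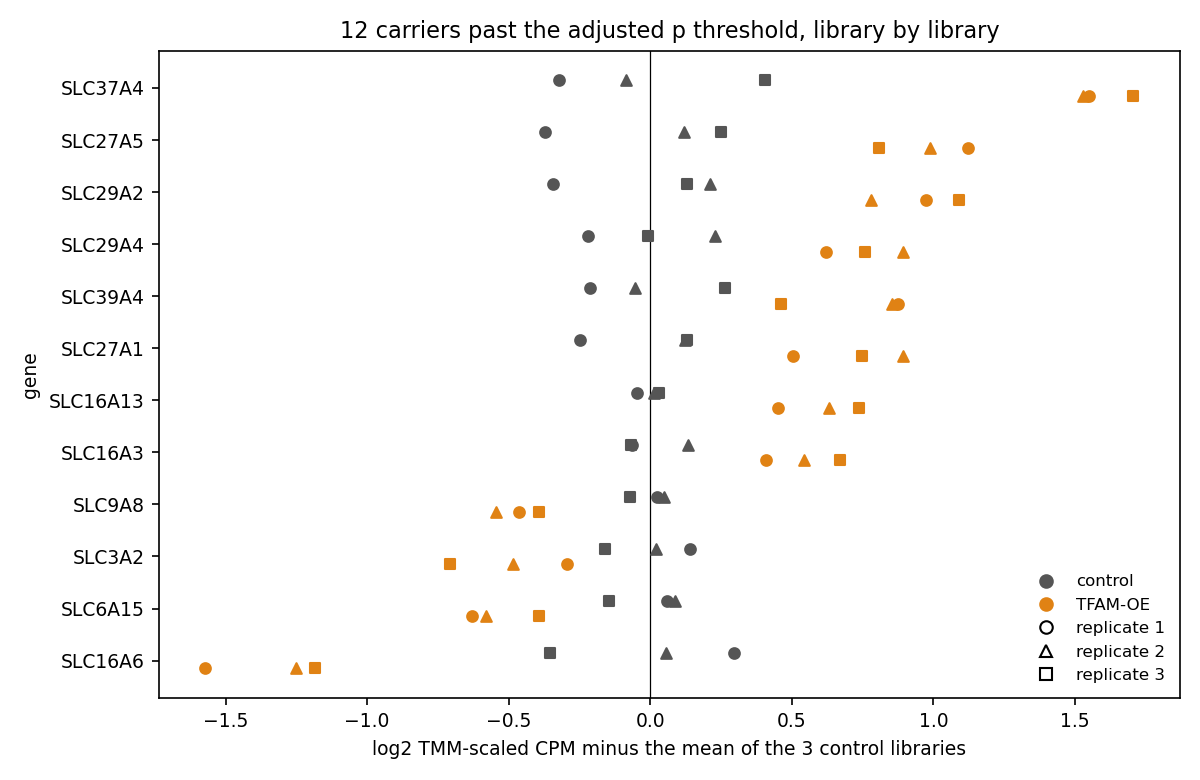
Each of the 12 carriers past the adjusted p threshold (rows) in each library, as log2 TMM-scaled CPM minus the mean of the 3 control libraries (horizontal axis). Gray symbols are control and orange symbols TFAM-OE libraries, with shapes for replicates 1, 2 and 3. In every row the gray and orange symbols are apart.

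Of 22 carriers of zinc, copper, magnesium and heme, 1 rose and none fell past the threshold. SLC39A4 (ZIP4), a zinc importer of the plasma membrane, stood at 14.1, 15.7 and 19.6 CPM in control and at 29.9, 29.5 and 22.5 CPM in TFAM-OE. TFAM-OE replicate 3 was the nearest to the control libraries, and the groups did not overlap. The log2 fold change was 0.73 (SE 0.16, Benjamini-Hochberg adjusted p 0.024 in edgeR's quasi-likelihood fit). SLC30A1 (ZnT1), the zinc exporter of the plasma membrane, had the lowest value of the class. It stood at 77.1, 64.4 and 51.7 CPM in control and at 33.8, 39.5 and 52.0 CPM in TFAM-OE, where replicate 3 reached the control range. The log2 fold change of SLC30A1 was -0.63 (edgeR adjusted p 0.061), and without TFAM-OE replicate 3 it was -0.81 (adjusted p 0.0035). SLC30A1 also passed without control replicate 3, but not with any other single library left out. Without TFAM-OE replicate 3 many more genes passed in the whole data set, as given further on. SLC30A1 passed as well with DESeq2, edgeR's exact test, a fit of every gene with a read, and offsets for GC content or transcript length. These fits, given further on, likewise passed more genes in the whole data set.

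In direction 14 of the 22 were lower and 8 higher, with a median log2 fold change of -0.10. SLC39A1 had 0.16 and SLC39A7 had -0.06. The copper importer SLC31A1 had 0.21, the zinc importers SLC39A8 and SLC39A10 had -0.34 and -0.31, and SLC39A11 had 0.40, all without passing in the edgeR fit. MTF1, the zinc-sensing transcription factor whose known targets include SLC30A1, had means of 17.1 ± 2.90 CPM in control and 10.8 ± 2.54 CPM in TFAM-OE (SD, n = 3 each), a difference of -0.66 on the log2 scale (edgeR adjusted p 0.063). Neither MTF1 nor SLC30A1 passed the threshold, and a link between them was not tested.

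Of the 21 carriers of protons, sodium, bicarbonate, chloride, sulfate and calcium, 1 fell and none rose. SLC9A8 (NHE8), a sodium and proton exchanger of the Golgi and the plasma membrane, stood at 37.5, 38.2 and 35.1 CPM in control and at 26.8, 25.3 and 28.1 CPM in TFAM-OE. All TFAM-OE libraries were lower than all control libraries, with a log2 fold change of -0.47 (SE 0.10, Benjamini-Hochberg adjusted p 0.024 in edgeR's quasi-likelihood fit). SLC12A2 (NKCC1), the sodium, potassium and chloride cotransporter, had 0.00 with a 95% interval from -0.46 to 0.47. SLC4A4, a sodium and bicarbonate cotransporter, had the lowest value of the class, -0.48, with an adjusted p of 0.40, and SLC4A11 the highest, 0.43.

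No carrier passed among the 8 for vitamins, the 8 for peptides, organic ions and vesicular transmitters, the 6 for nucleotide sugars and acetyl-CoA, the 2 for phosphate, or SLC22A18, which was placed in no class. The lysosomal carrier SLC46A3 came nearest, at -0.55 with an edgeR adjusted p of 0.056 and groups that did not overlap. Other vitamin carriers did not pass, with 0.33 for the folate carrier SLC19A1, 0.29 for SLC52A2, 0.28 for the multivitamin carrier SLC5A6 and 0.24 for the proton-coupled folate carrier SLC46A1. SLC20A1 stood at 194, 191 and 186 CPM in control and at 146, 155 and 164 CPM in TFAM-OE. The groups were apart, yet the log2 fold change of -0.29 had an adjusted p of 0.072 in the edgeR fit. The Golgi carriers of nucleotide sugars SLC35A2 and SLC35A5 had -0.22 and -0.23, and the ergothioneine and carnitine carriers SLC22A4 and SLC22A5 had -0.45 and -0.12.

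By compartment, 20 carriers are known from the endoplasmic reticulum or Golgi, and of these SLC37A4 rose and SLC9A8 fell, with a median log2 fold change of -0.11. Of 14 lysosomal or endosomal carriers none passed, with a median of -0.13. The 90 others, at the plasma membrane or not assigned, held 7 that rose and 3 that fell, with a median of -0.01.

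A property that the choice of genes did not use went with the fold changes. Across the 124 carriers the log2 fold change and the GC content of the canonical transcript had a Spearman rho of 0.53 and a Pearson r of 0.50, and transcript length gave a rho of -0.26. These are across genes measured in the same 6 libraries, and genes are not independent replicates. The 11136 protein-coding genes with at least 600 reads and a transcript match gave a rho of 0.32 with GC content and -0.22 with length. The 8 carriers that rose had a GC content between 56.2% and 66.6% with a median of 62.5%. The 4 that fell ran from 37.5% to 57.8% with a median of 47.0%, and the other 112 had a median of 51.2%. Of those that fell, SLC3A2 at 57.8% and SLC9A8 at 54.5% were above the median of the other 112.

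Split by GC content, the 42 carriers between 35.2% and 45.2% had a median log2 fold change of -0.18, and 10 of them were higher in direction. The 41 between 45.4% and 58.0% had a median of -0.03. The 41 between 58.1% and 66.6% had a median of 0.25, 28 of them were higher, and 7 of the 8 carriers that rose were among them. With an offset for GC content in the same edgeR fit, chosen after seeing the data, 8 carriers were higher and 7 lower. Of the 12 calls 9 kept an adjusted p below 0.05, SLC37A4 at 1.52 (adjusted p 0.0011) and SLC16A6 at -1.22 (adjusted p 0.0043) among them. The calls of SLC16A3 (0.42, adjusted p 0.062), SLC27A1 (0.61, adjusted p 0.0504) and SLC6A15 (-0.39, adjusted p 0.065) did not. What set the GC pattern was not tested.

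**Figure D4:**
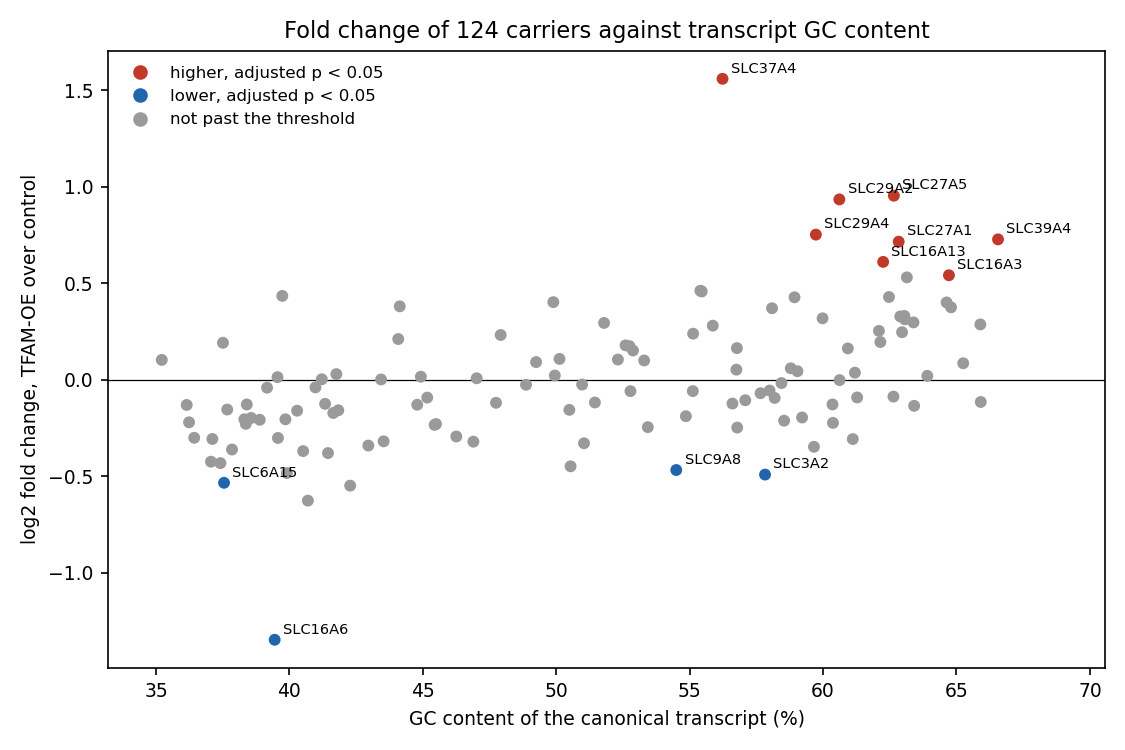
GC content of the canonical transcript in percent (horizontal axis) against the log2 fold change of TFAM-OE over control (vertical axis) for 124 carriers, with the 12 past the adjusted p threshold labelled. The points rise from left to right, and the 8 carriers that rose all lie at 56.2% or above.

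The calls differed in how often they held. SLC37A4 passed the adjusted p threshold in all 19 other ways of fitting or filtering the libraries, with log2 fold changes from 1.19 to 1.80. SLC16A6 did too, with values from -1.51 to -0.54, but since it met the minimum of 600 reads mainly through the group where it is high, this is a description of the gene and no support for the choice of it, and a minimum of 1200 reads leaves it out. SLC29A2 passed in 17 of 19, SLC27A5 and SLC29A4 in 16, SLC16A13, SLC9A8 and SLC39A4 in 15, SLC16A3 and SLC3A2 in 14, SLC27A1 in 10 and SLC6A15 in 9. None of the 12 changed direction in any of the 19. This is no support for the calls, since the genes were picked in these same libraries and had groups that were apart. Leaving out TFAM-OE replicate 3 gave 20 carriers higher and 15 lower, all 12 calls among them. Leaving out control replicate 1 gave 2 and 1, control replicate 2 gave 3 and 1, and TFAM-OE replicate 2 gave 2 and 1. The 23 carriers gained without TFAM-OE replicate 3 included SLC20A1, SLC29A1, SLC30A1 and SLC38A2. Such swings between left-out libraries were not particular to the carriers. Tested protein-coding genes of any read sum gave 534 higher and 677 lower in the reported fit, and 1329 and 1594 without TFAM-OE replicate 3. They gave 85 and 226 without control replicate 1, 61 and 214 without control replicate 2, and 84 and 231 without TFAM-OE replicate 2.

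**Figure D5:**
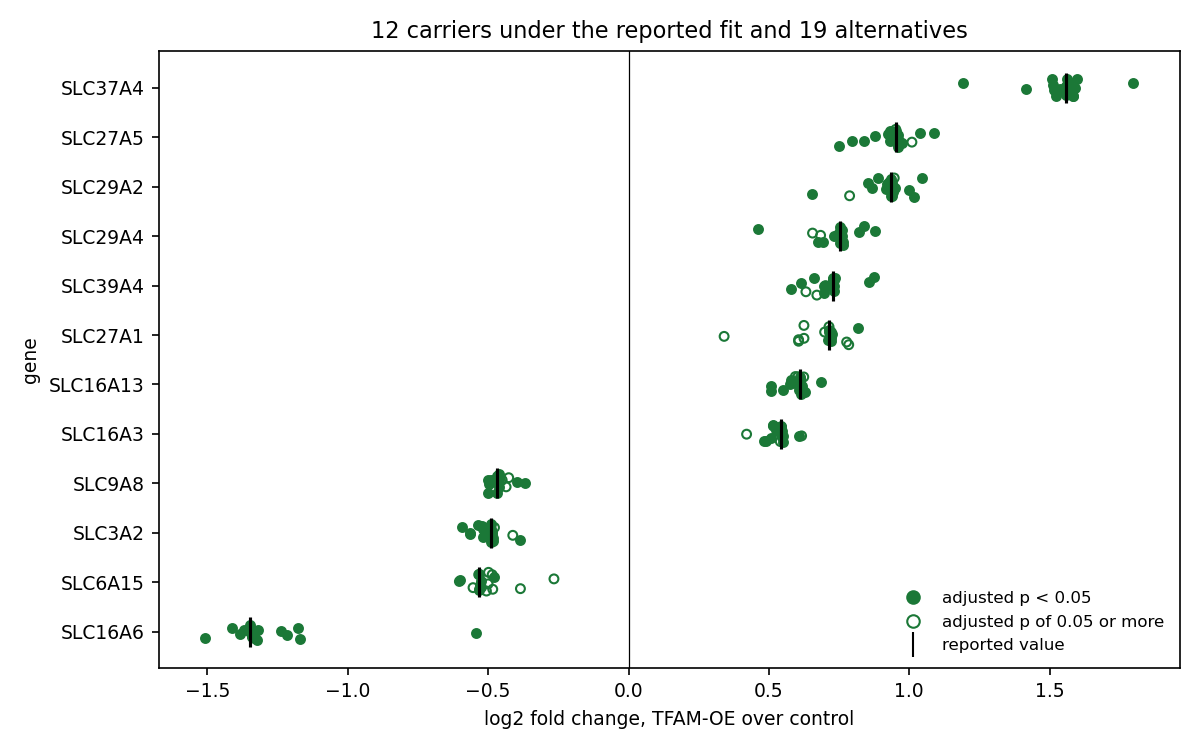
Log2 fold change of TFAM-OE over control (horizontal axis) of the 12 carriers past the adjusted p threshold (rows) under 19 alternative fits, filters and left-out libraries. Filled points passed an adjusted p below 0.05, open points did not, and black bars are the reported values. All points of a gene stay on one side of 0, and SLC37A4 and SLC16A6 have no open point. The genes were picked as past the threshold in these same libraries.

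At the read minimum, the carriers just inside were SLC5A2 with 619 reads, SLC30A4 with 641 and SLC43A1 with 652, with log2 fold changes of -0.09, 0.43 and -0.06. Just outside were SLC7A7 with 594 reads, SLC1A1 with 553 and SLC30A3 with 531, with 0.62, -0.13 and 0.37. Of the 126 carriers under the minimum, 36 had enough reads to be tested and 3 of those fell past the threshold. That is 8.33% of them, near the 8.29% of all genes tested. SLC15A3, a lysosomal carrier of peptides and histidine, had 75, 75 and 127 reads in control and 19, 30 and 14 in TFAM-OE, a log2 fold change of -2.15 (SE 0.27, edgeR adjusted p 0.0020). SLC8A2, a sodium and calcium exchanger, had 17, 27 and 18 reads in control and 3, 4 and 5 in TFAM-OE, and SLC4A5, a sodium and bicarbonate cotransporter, had 23, 18 and 27 and then 8, 9 and 6. In all 3 genes every TFAM-OE library was below every control library. SLC8A2 and SLC4A5 had enough reads to be tested only through their control libraries. For these genes the lower values are a description, and no support is drawn from them.

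The 35 mitochondrial SLC25A carriers with the same read minimum are the genes most like these. Among them 4 rose and none fell, or 11.4% past the threshold beside 8.29% of all genes tested, with a median log2 fold change of 0.12. Those that rose were the dicarboxylate carrier SLC25A10 at 1.34 (adjusted p 0.0053), SLC25A39 at 0.77 (adjusted p 0.025), SLC25A23 at 0.66 (adjusted p 0.012) and the citrate carrier SLC25A1 at 0.56 (adjusted p 0.020) in the same edgeR fit. Of the 5 genes set aside by name, SLC40A1 and SLC2A1 fell, at -0.90 and -0.41. Whether carriers of mitochondria and of other membranes differ was not tested.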

How the data were processed

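RNA-seq of 3 control and 3 TFAM-OE libraries was analysed from the 2 deposited tables. The authors trimmed reads with FASTX-Toolkit 0.0.13, dropped reads under 16 nt, aligned them to GRCh38 with TopHat2 allowing 4 mismatches and deposited whole-number read counts per gene and FPKM values per gene. Which program counted the reads, on which annotation and with which strand setting, is not given in the sources used here.

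From the counts, genes kept by filterByExpr were scaled by TMM and tested two-sided with edgeR 4.0.16 (quasi-likelihood test, no covariates), with Benjamini-Hochberg adjustment over all 16555 genes. The script was tested on simulated data, where the share of false calls at an adjusted p below 0.05 was above the nominal level, and further above it with no filter on low counts, so calls near the threshold are less certain than their adjusted p. A call at 2-fold also needed a log2 fold change beyond 1. Levels between genes used FPKM alone. Of 4 ratios computed, 2 joined a gene higher in every TFAM-OE library to one lower in every TFAM-OE library, which fixes the outcome, and are not reported; the others were tested by exact permutation. Gene coordinates and GC content came from GENCODE release 44. Depth was between 26650854 and 37321956 reads, and intervals cover 95%.

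Named were the carriers called at 2-fold, up to 12 with the smallest p in each direction among those past the threshold, the 8 with the highest FPKM, the highest and lowest log2 fold change of each class, textbook carriers, and the 3 genes on each side of the read minimum. Other carriers were named after their values were seen. The members, classes, gene lists and markers were chosen with earlier results of these data known. Alternatives were other filters, scalings and tests (DESeq2 1.42.0, limma 3.58.1), left-out libraries, read minimums of 300 and 1200 and, chosen after seeing the data, offsets for GC content and transcript length.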

Additional observations from a re-analysis of the deposited data

How the results depend on the processing

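The reported fit gave 8 carriers higher and 4 lower. DESeq2 gave 13 and 7, and edgeR's exact test 13 and 8. A fit of every gene with a read, which made more false calls on simulated data, gave 9 and 7. An offset for transcript length gave 15 and 9 and an offset for GC content 8 and 7, both offsets being chosen after seeing the data. Over tested protein-coding genes of any read sum the counts moved too, from 534 higher and 677 lower in the reported fit. The same fits gave 871 and 954, 895 and 1026, 939 and 1227, 1091 and 1070, and 750 and 861, in that order. Leaving out each library in turn gave between 2 and 20 higher and between 1 and 15 lower, between 1 and 2 higher at 2-fold, and a median log2 fold change of the members between -0.065 and -0.0013, against -0.040. That median was -0.073 on log2(FPKM + 0.1) and 0.0060 with the length offset. The 1 carrier lower at 2-fold became 0 on log2(FPKM + 1) and with a minimum of 1200 reads, and 2 with a minimum of 300. The causes were not tested. None of the 12 carriers past the threshold changed direction under any of the 19 alternatives run on each gene, an outcome that picking them in these same libraries made nearly certain. Same-numbered control and TFAM-OE libraries deviated from their group means with correlations of -0.22, 0.008 and -0.27, so no shared deviation was seen. With 3 libraries centred in each group, these correlations cannot settle whether same-numbered cultures were run together. The labels do not say. A fit with the replicate number as a block gave 1 carrier higher (SLC37A4, adjusted p 0.0063) and 1 lower (SLC16A6, adjusted p 0.044) in edgeR's quasi-likelihood test. Tested protein-coding genes gave 70 higher and 249 lower in that fit. Depth limits genes such as SLC16A6, with 190 reads in 3 TFAM-OE libraries.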

Other observations

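Proteins that work with carriers or control their genes were counted in the same edgeR fit with Benjamini-Hochberg adjustment. Of 16 listed partner proteins 11 had enough reads to be tested and none passed the adjusted p threshold. At an unadjusted p below 0.05 there were 1 lower and 2 higher, beside 2191 lower and 2017 higher of all 16555 genes tested. EMB, a chaperone of SLC16 carriers, had a log2 fold change of 0.10. Of 14 listed regulators, SREBF1, a transcription factor of lipid synthesis, rose from 78.3 ± 8.11 to 131 ± 15.7 CPM (SD, n = 3 each), or by 0.75 on the log2 scale (adjusted p 0.0062). NFE2L2, a transcription factor of the oxidative stress response, fell from 82.8 ± 12.2 to 56.2 ± 2.28 CPM, a log2 difference of -0.56 (adjusted p 0.021). SREBF1 and NFE2L2 were the only regulators past the threshold, 14.3% of the list beside 8.29% of all genes tested.

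The 25 carriers outside the naming rule, SLCO genes and SLC genes with a letter other than A, held none past the threshold of edgeR's test. Their median log2 fold change was 0.06. At an unadjusted p below 0.05 they held 2 lower and 2 higher, beside 2191 lower and 2017 higher of all 16555 genes tested. Promoters in a RefSeq table, which covers 250 bases before to 50 after the start, matched 98 of the 124 carriers. The carriers were reduced to a single promoter each, whereas the 35116 promoters of the whole table were not reduced per gene or limited to expressed genes, so the shares are not of like sets. An E-box, CACGTG, was found in 13.3% of the carriers' promoters and in 7.26% of all promoters. A metal response element core, TGCGCNC, was found on either strand in 23.5% and in 20% of all promoters, and the core of the interferon-stimulated response element in 0 of 98 and in 3.57% of all promoters. None of the 5 matched carriers that rose or the 2 that fell held the E-box. The metal response element core was found in 2 of the 5 that rose and in none of the 2 that fell. A match is a description of letters in the window.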
